A study of Mus musculus with 6 samples.

Results

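A2m, Aoc3 and Ace are 3 genes that fell steeply under intermittent compressive force (ICF) in embryoid bodies made from mouse iPSCs, or induced pluripotent stem cells. They were picked by name because of that fall, so their difference between ICF and control is given as a description, without a test. The 3 genes stand against 50686 genes in the count tables, of which 16729 passed the filter on low counts. The iPSCs had been reprogrammed from mouse gingival fibroblasts and grown on SNL feeder cells. They were separated from the feeders, formed into embryoid bodies, given retinoic acid and attached to gelatin-coated plates, in both groups. The 3 ICF samples were then loaded for 24 h in medium without serum at 1.5 g per square centimetre and 0.23 Hz, and the 3 control samples were left unloaded. The sample labels number the samples of each group by donor from 1 to 3, while the methods speak of independent experiments, and the number is called the replicate below. The mouse strain, age and sex were not given in the sources used here. RNA came from whole constructs, so fewer cells of a type and less RNA per cell cannot be told apart.

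The genes encode 3 proteins that act outside the cell or at its surface. A2m encodes alpha-2-macroglobulin, a large secreted protein that traps proteases of many classes. It is known as a plasma protein of the liver, and the trapped complexes are taken up by the receptor Lrp1. Aoc3 encodes vascular adhesion protein 1, a copper-containing amine oxidase that sits in the plasma membrane, oxidizes primary amines and is known from endothelial cells, smooth muscle and adipocytes. Ace encodes angiotensin-converting enzyme, a zinc peptidase of the cell surface that makes angiotensin II from angiotensin I and breaks down bradykinin. Its somatic form is known from vascular endothelium and from epithelia of the kidney and gut, and a shorter form starts at a second promoter in male germ cells.

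A2m lies on chromosome 6 of GRCm38, on the forward strand from 121635376 to 121679227. Aoc3 lies on chromosome 11, on the forward strand from 101330605 to 101341938, and Ace on the same chromosome and strand from 105967945 to 105989964. All 3 are annotated as protein-coding, with 3, 2 and 4 transcripts. The counts are per gene, so transcripts from the separate starts of Ace were added together. The 250 bases upstream of both start sites that RefSeq lists for Ace on GRCm38.p6 are shown because 1 count covers both. They end before start sites at 105967948 and 105975189 on chromosome 11, which are 7241 bases apart. Capitals mark the motifs found.
Ace, upstream start: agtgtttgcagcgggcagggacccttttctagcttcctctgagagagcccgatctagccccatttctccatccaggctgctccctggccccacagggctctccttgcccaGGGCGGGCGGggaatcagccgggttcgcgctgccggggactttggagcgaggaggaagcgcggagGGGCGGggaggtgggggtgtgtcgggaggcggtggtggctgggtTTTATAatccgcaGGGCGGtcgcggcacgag
Ace, downstream start: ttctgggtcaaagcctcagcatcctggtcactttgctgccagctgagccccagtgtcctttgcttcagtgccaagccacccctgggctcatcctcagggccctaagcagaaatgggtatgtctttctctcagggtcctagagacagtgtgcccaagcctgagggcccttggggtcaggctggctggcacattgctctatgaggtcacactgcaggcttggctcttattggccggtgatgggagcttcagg
The promoter set used here held none for A2m or Aoc3, so the motif search covered Ace only. On either strand, the upstream window held 4 copies of GGGCGG, the GC box, of which a pair overlap in 1 run. It also held 1 copy of TATAAA, the letters of a TATA box, on the strand opposite to Ace. This copy therefore reads TTTATA in the sequence shown. The upstream window held no ACGTG or GCGTG, the core letters bound by hypoxia-inducible factors, and no TTCNNNGAA, the letters of a STAT site. The downstream window held none of these 5 motifs. Among 32851 promoter windows of the same length, 32.7% held GGGCGG, 12.4% TATAAA, 16.6% ACGTG, 28.2% GCGTG and 7.02% TTCNNNGAA.

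Between 28711166 and 34194413 reads were counted on genes in each sample. Multiples of 4 made up 89.0% of the nonzero counts of ICF replicate 3 and 20.3% to 21.5% of those of each other sample, and in that replicate the counts of A2m, Aoc3 and Ace were also multiples of 4. Levels are given as CPM, the reads of a gene relative to the size of its library after TMM normalization. Reads that mapped to more than 1 place were not counted, and they made up 29.5% to 31.3% of all entries per sample. A2m and Ace shared no stretch of 75 bases, the read length, with a transcript of another gene, whereas 2.31% of the stretches of Aoc3 also occurred in Aoc2 or Gm11618. The antisense genes Gm28156, which overlaps Aoc3, and Gm11651, which overlaps Ace, had 1 and 0 reads in all 6 samples together.

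A2m had the highest control level of the 3 genes and lost the most. Its level was 28.2 CPM in control replicate 1, 28.2 in replicate 2 and 14.3 in replicate 3, from 823, 882 and 411 reads. With ICF it was 1.53, 1.54 and 0.828 CPM, from 53, 51 and 24 reads. Replicate 3 was the low sample in both groups, and the lowest control sample was still 9.26 times the highest ICF sample. The group means were 23.5 ± 8.01 CPM (SD, n = 3) in the control and 1.30 ± 0.408 CPM (SD, n = 3) with ICF. On the log2 scale the fitted change was -4.16, with a standard error of 0.43 from the spread between samples. Set against the control of the same replicate number, the ICF level was 5.42% in replicate 1, 5.48% in replicate 2 and 5.79% in replicate 3. The level of A2m thus differed by replicate number, while the share that was left read between 5.42% and 5.79%. Counting error alone gives 15.3% for the ICF samples. It takes the 24 reads of ICF replicate 3 as separate reads, which the multiples of 4 put in doubt. The shares are therefore closer together than these counts can resolve. Control replicate 3 stood at 50.8% of the mean of control replicates 1 and 2, and ICF replicate 3 at 54.0% of the mean of ICF replicates 1 and 2. This drop of control replicate 3 was at the 0.610th percentile of all genes tested. The relative SD between control samples was 34%, at the 93.8th percentile, whereas counting error alone gives 3.77% at this depth.

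Aoc3 was nearly level among the controls and fell to the fewest reads. It had 5.20, 4.98 and 5.04 CPM in control replicates 1, 2 and 3, from 152, 156 and 145 reads. The ICF samples had 0.461, 0.393 and 0.414 CPM, from 16, 13 and 12 reads. No ICF sample came near a control sample, with a gap of 10.8 times between the lowest control and the highest ICF sample. The means were 5.08 ± 0.112 CPM (SD, n = 3) and 0.423 ± 0.0344 CPM (SD, n = 3), and the log2 fold change was -3.57. The ICF level was 8.86%, 7.90% and 8.21% of the control in replicates 1 to 3. The relative SD was 2.21% in the control, at the 6.59th percentile of all genes tested, and 8.14% with ICF. Both are below the 8.14% and 27.1% that counting error alone gives, so the spread between samples understates the error of this gene. The standard error of its log2 fold change was 0.06 from the spread between samples and 0.24 from the 453 control and 41 ICF reads. The exact 95% Poisson interval of the 41 reads runs from 29.4 to 55.6 and covers counting error only. It, the 27.1% and the 0.24 take the 12 reads of ICF replicate 3 as separate reads, which the multiples of 4 in that library put in doubt, so the counting error may be larger.

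Ace fell less, to about the same level in each ICF sample. It had 6.16, 6.74 and 7.13 CPM in control replicates 1, 2 and 3, from 180, 211 and 205 reads. With ICF it had 2.07, 1.88 and 2.21 CPM, from 72, 62 and 64 reads. The lowest control sample was 2.79 times the highest ICF sample. The means were 6.68 ± 0.489 CPM (SD, n = 3) and 2.05 ± 0.167 CPM (SD, n = 3), with a log2 fold change of -1.70 and a standard error of 0.09. The ICF level was 33.7%, 27.8% and 31.0% of the control in replicates 1 to 3. Its relative SD in the control, 7.33%, was close to the 7.09% of counting error and at the 40.6th percentile of all genes tested. With ICF it was 8.15%, below the 12.3% of counting error. Counting error alone gives a standard error of 0.12 for the log2 fold change, so the 0.09 from the spread understates the error. The 12.3% and the 0.12 also take the 64 reads of ICF replicate 3 as separate reads.

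**Figure D1:**
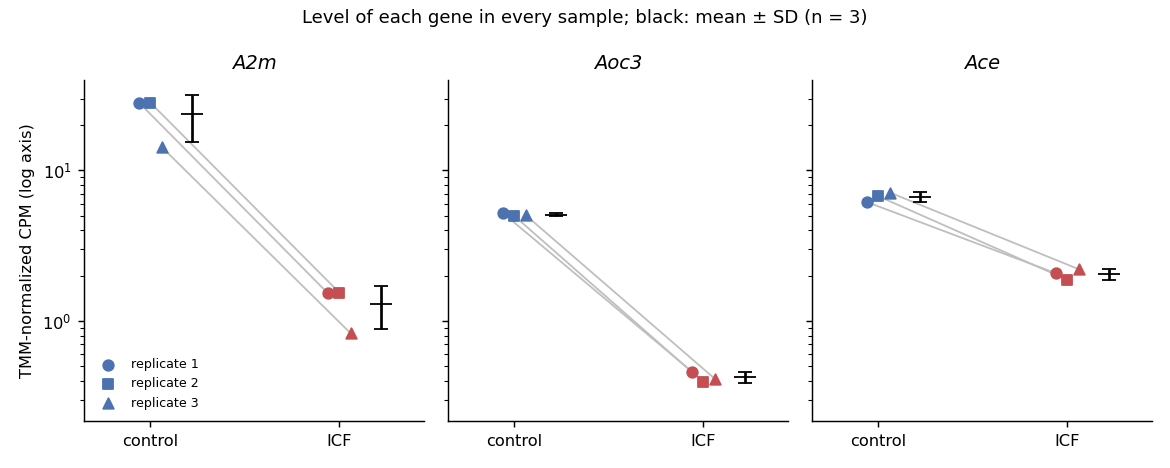
Level of A2m, Aoc3 and Ace in each sample, in TMM-normalized CPM on a log axis, with control in blue and ICF in red, symbols for replicates 1 to 3 and grey lines between samples of the same replicate number. Black bars give mean and SD (n = 3). The A2m points of replicate 3 lie low in both groups, at 14.3 and 0.828 CPM, and every ICF point lies below every control point of the same gene.

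In each of the 3 genes every ICF sample was below every control sample, which was also true of 15.7% of all genes tested. Since the genes were chosen for their fall, nothing is read from this. In the order of log2 fold changes from the largest fall, A2m was 4th, Aoc3 6th and Ace 65th of 16729 genes. Among the 14193 genes with a control mean of at least 1 CPM they were 3rd, 5th and 43rd. Next to A2m and Aoc3 in this order stood Ndufa4l2, a mitochondrial protein gene, at -4.41, Gm15283 at -4.24, and Adm, which encodes the vasodilator peptide adrenomedullin, at -4.08. They were followed by Gm6161 at -3.30, Stc1, which encodes the secreted hormone stanniocalcin, at -3.22, and Gm16754 at -3.14. The largest fall, -5.05 in 1600014C23Rik, was in a gene with a control mean of 0.470 CPM. Around Ace the steps were small, from Jsrp1 at -1.74, Il17f at -1.73 and 1110035H17Rik at -1.73 before it to Ldha, the lactate dehydrogenase gene, at -1.69, Sprr1a at -1.68 and Tal2 at -1.68 after it. These 6 neighbours of Ace were all within 0.04 of it, less than its standard error of 0.09 from the spread between samples. Their own standard errors ran from 0.15 in Ldha to 0.74 in 1110035H17Rik.

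**Figure D2:**
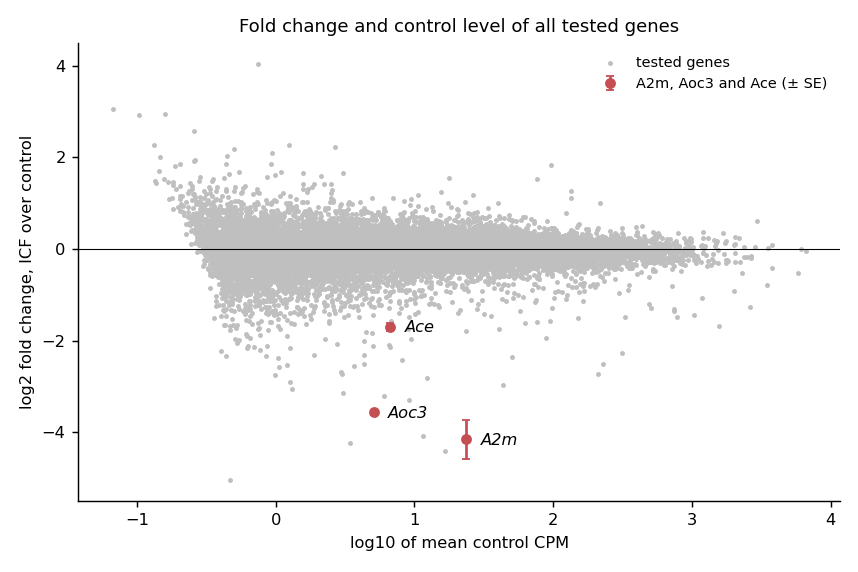
Log2 fold change of ICF over control against log10 of the mean control CPM for 16729 tested genes in grey, with A2m, Aoc3 and Ace in red and bars for the standard error from the spread between samples. A2m at -4.16 and Aoc3 at -3.57 lie at the lower edge of the cloud and Ace at -1.70 closer to it.

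To compare levels between genes, CPM was divided by the length of the longest transcript, which was 4.605 kb for A2m, 4.397 kb for Aoc3 and 4.906 kb for Ace. On this scale the control means were 5.11 CPM per kb for A2m, 1.36 for Ace and 1.15 for Aoc3, at the 48.4th, 27.7th and 25.5th percentiles of the genes tested. With ICF the means were 0.282 CPM per kb for A2m, 0.0961 for Aoc3 and 0.418 for Ace, at the 9.0th, 1.65th and 13.2th percentiles. The order of the mean levels changed. In every control sample A2m was above Ace per kb, by 4.87, 4.45 and 2.14 times in replicates 1, 2 and 3, and in every ICF sample it was below Ace, at 0.784, 0.876 and 0.400 times. The ICF ratios rest on 53, 51 and 24 reads of A2m and 72, 62 and 64 of Ace. Counting error was not worked out for these ratios, so the order within a single ICF sample is not settled. Ace and Aoc3 were near each other in the control, with Ace at 1.06, 1.21 and 1.27 times Aoc3. With ICF they were 4.03, 4.27 and 4.78 times apart.

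Profiles over the 6 samples were compared by Pearson's r on log2 CPM among 11137 genes with a mean of at least 5 CPM. The samples fall into 2 groups, so r mostly follows the difference between the groups, and it ignores the size of that difference. Between the 3 genes r was 0.98 for A2m and Aoc3, 0.96 for A2m and Ace, and 0.99 for Aoc3 and Ace. The genes most like A2m were Tpt1, Usp22, Mthfd1l, Enpp3 and Gm2a, all with an r of 1.00. Like A2m, Gm2a was lowest in replicate 3 of each group, with 46.9, 49.9 and 42.2 CPM in the control and 25.8, 25.2 and 21.7 CPM with ICF. Their log2 fold changes were far smaller than that of A2m, from -0.93 in Gm2a, which encodes a lysosomal activator of ganglioside breakdown, to -0.12 in Tpt1. The genes most like Aoc3 were Radil, Mapk8, Tmem45a, Pfkp and Ccng2, with r of 1.00 and log2 fold changes from -1.21 in Pfkp, a phosphofructokinase of glycolysis, to -0.36 in Mapk8. Those most like Ace were Vegfa, Tlr2, Lrrc2, Clca3b and again Mapk8, with r of 1.00. Vegfa, the gene of a growth factor for blood vessels, had 120, 125 and 125 CPM in the control and 84.5, 81.1 and 88.6 CPM with ICF. Among the 11137 genes an r of at least 0.95 was reached with A2m by 425, with Aoc3 by 334 and with Ace by 298. Such profiles are thus not particular to these 3 genes.

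Genes beside the 3 on the chromosome did not pass the test. Differential expression was tested over all 16729 genes with edgeR's quasi-likelihood test and Benjamini-Hochberg adjustment, with a threshold of 0.05 (n = 3 per group), and 7.85% of the genes passed. Of the 12 protein-coding genes nearest to A2m, Aoc3 and Ace, 7 could be tested and 0 passed, and 0 had an unadjusted p under 0.05 (0 passed with DESeq2, which gave no adjusted p for Gm27029, and 0 with the replicate block). Aoc2, an amine oxidase gene of the same family, ends 903 bases before Aoc3 and had 5.0, 4.12 and 4.94 CPM in the control and 3.22, 3.06 and 4.69 CPM with ICF. This is a log2 fold change of -0.36 ± 0.21 (SE, edgeR adjusted p = 0.284). The groups overlapped because ICF replicate 3 was within the control range. Without replicate 3 of both groups the log2 fold change of Aoc2 was -0.53 (edgeR adjusted p = 0.00991). That fit called 2466 genes higher and 2627 lower of 16893 tested, so a pass in it is common. Psme3, a proteasome activator gene that ends 7068 bases before Aoc3, had a log2 fold change of 0.08 (adjusted p = 0.481). Cyb561 ends 14609 bases before Ace and Kcnh6 starts 18160 bases after it, with log2 fold changes of -0.09 and -0.16 (adjusted p = 0.56 and 0.695). Tanc2, further out before Ace, had 0.19 (adjusted p = 0.413), Gm27029 near Aoc3 0.18 (0.717) and Slc6a12 near A2m 0.24 (0.71). Iqsec3 and Gm7298 beside A2m, Mug1 as well, G6pc beside Aoc3 and Ace3 beside Ace had too few reads to be tested.

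Relatives of the 3 genes were taken as 94 genes in 7 lists by kinship, substrate or pathway, of which 69 passed the filter on low counts. In the edgeR test 9 of the 69 fell and 2 rose with ICF. This was 13.0% and 2.90%, against 4.38% lower and 3.47% higher among all genes tested. The lists were chosen with earlier results of these data known, and with 1 sample left out 3 to 12 relatives fell. The median log2 fold change of the 69 was -0.01, and that of all genes tested was 0.00. With the replicate number as a block 18 of the 69 fell and 11 rose. Among all 16729 genes 2561 were lower and 2445 higher, which was 15.3% and 14.6%, or 29.9% together. None of the 69 fell as far as Ace. Ace was chosen for its fall and stood 65th of all 16729 genes, so nothing is read from this.

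**Figure D3:**
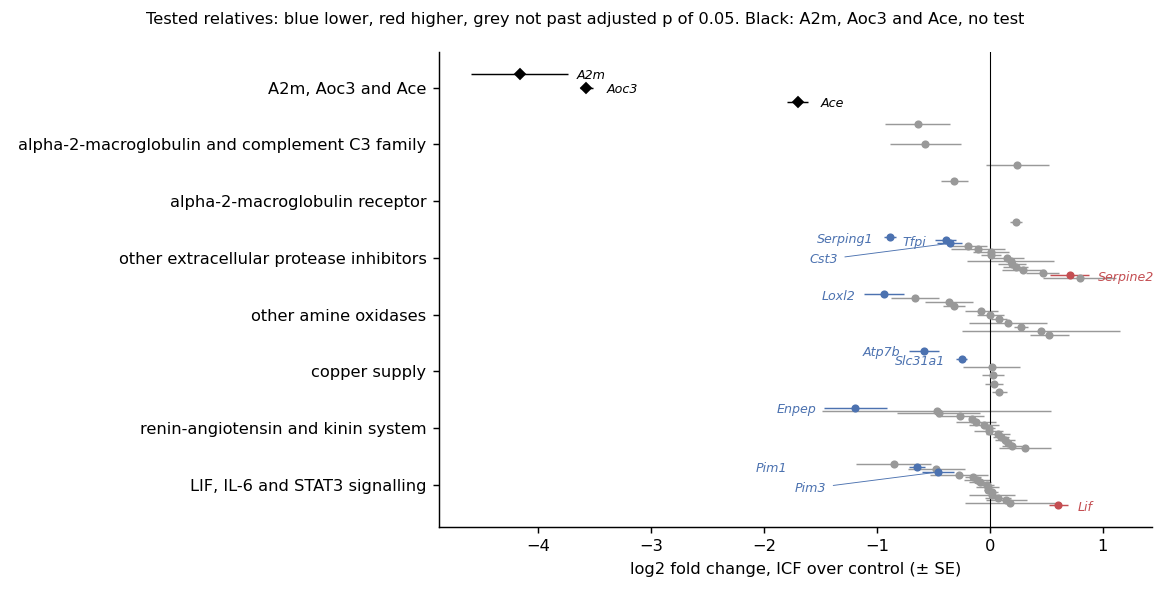
Log2 fold change of ICF over control with its standard error for the 69 tested relatives in 7 lists, with those lower in blue, higher in red and not past the adjusted p of 0.05 in grey, and A2m, Aoc3 and Ace in black without a test. Enpep is the lowest relative at -1.19, and all relatives lie to the right of Ace at -1.70, which was chosen for its fall.

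Homologues of A2m were near 0 or did not pass. Of 9 genes of the alpha-2-macroglobulin and complement C3 family, 3 could be tested and 0 passed with edgeR, with DESeq2 or with the replicate block, and 0 had an unadjusted p under 0.05. Pzp, the closest expressed relative and a protease trap itself, had 1.40, 1.15 and 1.43 CPM in the control and 0.921, 1.18 and 0.552 CPM with ICF. Its groups overlapped, at a log2 fold change of -0.57 ± 0.31 (SE, edgeR adjusted p = 0.268). Cd109, a membrane-anchored member, had 2.13 ± 0.262 CPM (SD, n = 3) in the control and 2.52 ± 0.737 with ICF (adjusted p = 0.578). Mug1 had no read in any sample and Mug2 had 8 in all 6 samples together, and 15.9% and 36% of their possible reads also match other genes. Lrp1, the receptor that clears alpha-2-macroglobulin complexes, had 70.0, 71.3 and 57.5 CPM in the control and 57.4, 49.5 and 52.9 with ICF, or -0.31 on the log2 scale (edgeR adjusted p = 0.0808). Lrpap1, the chaperone of this receptor, had 521 ± 32.3 and 611 ± 15.3 CPM (SD, n = 3), or 0.23 on the log2 scale (edgeR adjusted p = 0.0593). Both passed in the blocked fit, Lrp1 as lower (adjusted p = 0.000282) and Lrpap1 as higher (0.000421), and both passed with DESeq2 without the block.

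Among 20 other inhibitors of extracellular proteases, 15 could be tested, and 3 fell and 1 rose with edgeR. With the replicate block 4 fell and 4 rose. Serping1, the inhibitor of complement C1 and kallikrein, fell from 24.0, 21.6 and 22.4 CPM to 12.8, 12 and 12 CPM. This is a log2 fold change of -0.88 ± 0.05 (SE, edgeR adjusted p = 0.000951), and Serping1 passed with each of the 6 samples left out. Tfpi, the inhibitor of tissue factor, fell by 0.39 on the log2 scale (adjusted p = 0.024) and Cst3, the cysteine protease inhibitor cystatin C, by 0.36 (adjusted p = 0.0482). Serpine2, an inhibitor of thrombin and urokinase, rose from 24.8, 24.8 and 29.3 CPM to 41.2, 36 and 51.6 CPM, or by 0.71 ± 0.17 on the log2 scale (SE, edgeR adjusted p = 0.0166). These 3 calls depended on single samples. For Serpine2 the adjusted p was 0.0509 without ICF replicate 1, 0.0872 without control replicate 1 and 0.0953 without control replicate 2. For Tfpi it passed only without ICF replicate 3 (0.00196) or control replicate 3 (0.0362) and otherwise lay between 0.0834 and 0.112. Cst3 passed only without control replicate 3 (0.0292), with 0.0673 to 0.181 without another sample. The most abundant inhibitors that did not pass were Spint2, at 183 ± 28.1 and 160.0 ± 19.2 CPM (SD, n = 3, adjusted p = 0.36, and 0.00497 with the block, lower), and Spint1, at 54.1 ± 2.12 and 60.2 ± 10.2 CPM (adjusted p = 0.447). The block also called Timp1 and Timp3, inhibitors of metalloproteinases, higher (adjusted p = 0.000696 and 0.00441).

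Of 12 other amine oxidases 11 could be tested, and only Loxl2 passed with edgeR, as lower. DESeq2 also called Paox lower, and the replicate block called Paox lower and Smox and Loxl3 higher. Loxl2, which like Aoc3 needs copper and cross-links collagen and elastin, had 110, 117 and 80.8 CPM in the control and 53.3, 58.2 and 49.4 CPM with ICF. This is a log2 fold change of -0.93 ± 0.18 (SE, edgeR adjusted p = 0.00484), and Loxl2 passed with each of the 6 samples left out. Maoa, the mitochondrial monoamine oxidase A, had 41.9 ± 3.14 and 44.3 ± 1.37 CPM (SD, n = 3, adjusted p = 0.543). Paox, which oxidizes polyamines, had 27.1 ± 2.94 and 21.7 ± 0.949 CPM (adjusted p = 0.076, with 0.036 in DESeq2 and 0.00129 with the block). Smox, a spermine oxidase, had a log2 fold change of 0.27 (adjusted p = 0.0896, and 0.00995 with the block), and Loxl3, a relative of Loxl2, 0.53 (0.106 and 0.0175). Aoc1, the diamine oxidase, had 15 reads in all 6 samples together. Of 6 genes that supply copper, 2 fell. Slc31a1, the copper importer, fell by 0.25 on the log2 scale (adjusted p = 0.0482) and Atp7b, a copper-transporting ATPase, by 0.58 (adjusted p = 0.0463). Both passed only without control replicate 3 (0.0463 and 0.0284) among the fits that left out 1 sample, and otherwise lay between 0.0661 and 0.2. Atox1 and Ccs, 2 copper chaperones, had log2 fold changes of 0.03 and 0.04 (adjusted p = 0.877 and 0.797).

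Of 27 partners of Ace in the renin-angiotensin and kinin system, 15 could be tested, and only Enpep passed with edgeR or DESeq2, as lower. With the replicate block 3 fell (Enpep, Mme and Nln) and 3 rose (Ece1, Lnpep and Prep). Enpep, the membrane aminopeptidase that turns angiotensin II into angiotensin III, had 13.7, 15.5 and 12.1 CPM in the control and 7.74, 6.11 and 4.14 CPM with ICF. This is a log2 fold change of -1.19 ± 0.28 (SE, edgeR adjusted p = 0.0116). The adjusted p was 0.0558 without control replicate 1 and 0.0711 without control replicate 2. Ctsa and Thop1, peptidases that can act on angiotensins, had log2 fold changes of -0.01 and -0.01 (adjusted p = 0.932 and 0.959). The homologue Ace3 had no read in any sample. Agt, the gene of the precursor of the angiotensins, had 3 reads and Ren1, the gene of renin, 15 reads in all 6 samples together, of which 8 were in ICF replicate 3. These 2 genes and the receptor gene Agtr1a were singled out after their values were seen. Agtr1a had 0.980 ± 0.192 CPM (SD, n = 3) in the control and 0.711 ± 0.292 with ICF (adjusted p = 0.451).

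A2m has been described, not necessarily in the mouse, as a gene that STAT3 raises in the liver after interleukin 6. For this reason 18 genes of LIF, IL-6 and STAT3 signalling were listed, and the link itself was not tested here. Of 17 tested, 2 fell and 1 rose, and with the replicate block 6 fell and 1 rose. Pim1, a kinase gene, had 80.2, 77.2 and 71.2 CPM in the control and 47.1, 47.1 and 52.2 CPM with ICF, or -0.64 ± 0.07 on the log2 scale (SE, edgeR adjusted p = 0.00192). It passed with each of the 6 samples left out. Pim3, a kinase of the same family, fell by 0.46 on the log2 scale (adjusted p = 0.0399), but had an adjusted p of 0.123 without ICF replicate 1, 0.0618 without ICF replicate 3, 0.162 without control replicate 1 and 0.163 without control replicate 2. Lif, the gene of a cytokine that keeps mouse stem cells pluripotent, rose from 8.76, 9.61 and 8.42 to 14.7, 13.0 and 13.0 CPM. Its log2 fold change was 0.61 (adjusted p = 0.0124), with an adjusted p of 0.0648 without ICF replicate 1, 0.0726 without control replicate 1 and 0.0516 without control replicate 2. Klf4 and Lifr, the most abundant of the others, had log2 fold changes of -0.28 and -0.02 (adjusted p = 0.369 and 0.856), and for Klf4 the adjusted p with the block was 5.3e-05, lower. Socs3, the feedback inhibitor of this pathway, had 96.2, 99.8 and 59.2 CPM in the control and 54.8, 53.1 and 33.3 CPM with ICF (adjusted p = 0.0548, and 4.55e-14 with the block, lower). Bcl3 and Il6st were also lower only with the block.

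The constructs expressed markers of pluripotent cells, while several markers that define adipocytes, hepatocytes and late male germ cells were at or near 0. Over 10 markers per list, 53 of 80 could be tested, and 4 rose and 3 fell. This was 7.55% and 5.66%, against 3.47% and 4.38% of all genes tested. With the replicate block 11 of the 53 rose and 12 fell. Among all 16729 genes 2445 were higher and 2561 lower, which was 14.6% and 15.3%. Pluripotency markers summed to 3993 to 4749 CPM in the control and 3706 to 4077 CPM with ICF, with all 10 tested and 1, Tdgf1, lower by 0.81 on the log2 scale (adjusted p = 0.00283). Pou5f1 had 841 ± 57.2 and 817 ± 70.4 CPM (SD, n = 3, adjusted p = 0.788) and Dppa5a 669 ± 58.0 and 546 ± 58.9 CPM (adjusted p = 0.0918). With the block Dppa5a (1.16e-05) and Utf1 (0.00111) were lower too, and DESeq2 without the block also called Dppa5a lower (adjusted p = 0.0358).
The 10 endothelial markers summed to 119 to 128 CPM in the control and 114 to 138 CPM with ICF. Of 8 tested, Vwf fell, from 3.49, 4.22 and 3.76 to 2.27, 1.57 and 0.967 CPM (log2 fold change -1.24, adjusted p = 0.0291). Its adjusted p was 0.0931 without control replicate 1, 0.131 without control replicate 2 and 0.0882 without ICF replicate 2. Pecam1 had 34.7, 34.2 and 47.1 CPM in the control and 31.6, 31.4 and 60.2 CPM with ICF (adjusted p = 0.867), and Egfl7 a log2 fold change of -0.19 (adjusted p = 0.353). With the block 4 endothelial markers were lower, namely Vwf (adjusted p = 1.15e-05), Tie1 (0.000106), Cldn5 (0.0448) and Egfl7 (0.0334), and Cdh5 was higher (0.000286). Without it, DESeq2 called Vwf and Tie1 lower and Cdh5 higher. Tie1, a receptor of endothelial cells, had 6.40, 6.61 and 5.88 CPM in the control and 3.92, 4.84 and 2.21 CPM with ICF, and Cdh5, the cadherin of their junctions, had 17.9, 20.5 and 20.8 CPM and 24.0, 24.4 and 28.2 CPM. Emcn and Icam2 had too few reads to be tested.
Markers of smooth muscle and pericytes summed to 59.2 to 69.1 CPM in the control and 81.3 to 120 CPM with ICF, but the members did not move together. Of 9 tested 2 rose with edgeR, Mcam by 1.03 on the log2 scale (adjusted p = 0.00289) and Cspg4 by 0.85 (adjusted p = 0.0168). Cspg4 did not pass without control replicate 1, control replicate 2, ICF replicate 1 or ICF replicate 2 (adjusted p from 0.0616 to 0.0886). Mcam had 19.9, 21.8 and 27.2 CPM in the control and 43.9, 43.7 and 53.4 CPM with ICF. The contractile genes Acta2 and Tagln were high in ICF replicate 3 alone, at 21.4 and 24.6 CPM, against 7.51 and 8.49 in ICF replicate 1 and 7.69 and 8.84 in ICF replicate 2. In ICF replicates 1 and 2 Tagln was below its control range of 12.9 to 15.4 CPM. Cnn1, another contractile gene, had every ICF sample below every control sample (adjusted p = 0.133, and 0.0266 with the block, lower).
Adipocyte markers summed to 22.6 to 30.7 CPM and 24.9 to 34.4 CPM, and 0 of 3 tested passed with edgeR or DESeq2, with 1 at an unadjusted p under 0.05. With the replicate block 2 of the 3 were higher, Pparg (adjusted p = 0.00506) and Lpl (0.0123). Adrb3, on the same list, had 16.0 ± 2.99 CPM (SD, n = 3) in the control and 15.8 ± 2.13 with ICF (edgeR adjusted p = 0.937). Adipoq, Plin1 and Lep were at or near 0, with 9, 1 and 0 reads in all 6 samples together.
Markers of hepatocytes and visceral endoderm summed to 967 to 1392 CPM and 1089 to 1306 CPM, nearly all from Cubn, at 980.0 ± 236 and 1085 ± 112 CPM (SD, n = 3, adjusted p = 0.589, and 0.019 with the block, higher). Amn, whose product partners that of Cubn in visceral endoderm, fell by 0.44 on the log2 scale (adjusted p = 0.0175), with 0.0891 without control replicate 1 and 0.0849 without ICF replicate 1. The block also called Apob higher (adjusted p = 0.00468) and Apoa1 lower (0.0303). Alb had 1 read in all.
Macrophage markers summed to 25.3 to 28.2 CPM and 22.9 to 32.7 CPM with 0 of 3 tested past the threshold of edgeR, of DESeq2 or of the blocked fit and 0 at an unadjusted p under 0.05, and Fcgr1 and C1qa had no reads.
Fibroblast markers, which the SNL feeder cells would share, summed to 222 to 250 CPM and 251 to 275 CPM. Most of this came from Pdgfra, at 178 ± 6.45 and 182 ± 0.0559 CPM (SD, n = 3, edgeR adjusted p = 0.749). Dcn had 8.98 ± 2.21 and 8.28 ± 1.67 CPM, and Lum and Fap had too few reads to be tested. Of 8 tested 2 rose, Col1a1 by 0.75 (adjusted p = 0.0216) and Col3a1 by 0.73 on the log2 scale (adjusted p = 0.0482). Col1a1 did not pass without control replicate 1 (0.0822), ICF replicate 1 (0.0835) or ICF replicate 2 (0.0532), and Col3a1 without any 1 of the 6 samples (0.0668 to 0.155). With the block Col1a2 was higher too (1e-06).
Markers of male germ cells summed to 54.4 to 67.5 CPM and 52.5 to 65.0 CPM, with 0 of 4 tested past the threshold of edgeR or DESeq2, 1 at an unadjusted p under 0.05, and no reads of Prm1, Prm2 or Acrv1, genes of late sperm formation. With the replicate block 2 of the 4 were lower, Dazl (adjusted p = 0.0248) and Ldhc (0.0277). The part of any of these cell types in the falls of A2m, Aoc3 and Ace was not tested.

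**Figure D4:**
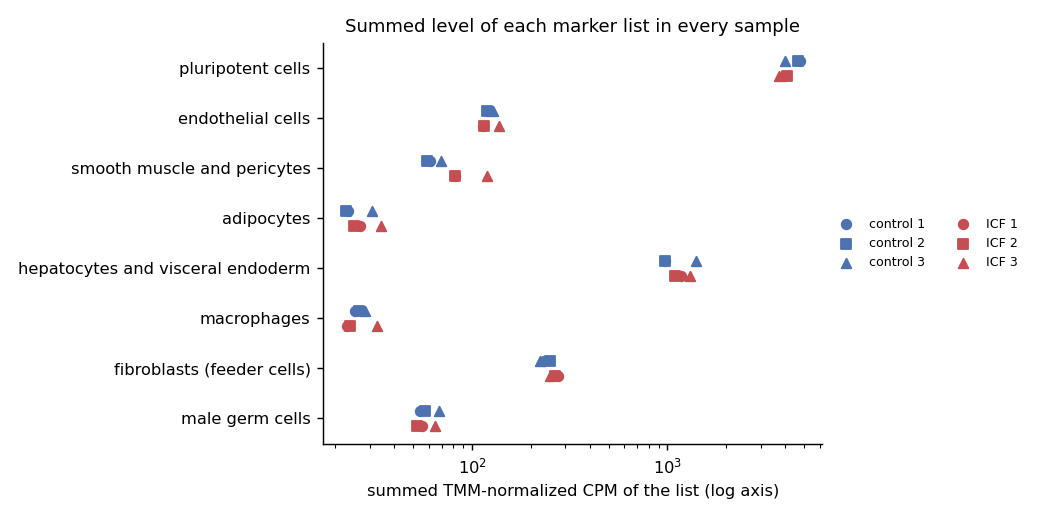
Summed CPM of 10 markers per cell type on a log axis, with control in blue, ICF in red and symbols for replicates 1 to 3. Pluripotency markers sum to 3706 to 4749 CPM in all samples, while adipocyte and macrophage markers stay under 35 CPM.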

How the data were processed

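Strand-specific mRNA libraries of 3 ICF and 3 control samples were read as single reads of 75 cycles. Trimming was done with Trimmomatic, alignment with HISAT2 and counting with HTSeq, and the authors deposited raw counts per gene without normalization. The submitters' notes name bcl2fastq 2.19 and both GRCm38 and hg38, and the gene identifiers are those of mouse. Summary lines of HTSeq, 38.1% to 40.3% of all entries, were left out. Symbols, coordinates and transcript lengths came from GENCODE M21 of GRCm38, which held 50462 of 50686 identifiers, and promoters from RefSeq. The list gene Cpamd8 was not matched.

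ICF and control were compared with edgeR 4.0.16 in R 4.3.3 (TMM, default filter by group, quasi-likelihood test, Benjamini-Hochberg adjustment over 16729 genes, threshold 0.05). Standard errors come from the SDs of log2 CPM (prior count 2). The procedure was checked on simulated counts. The labels give the same donor numbers in both groups, which pairs the samples. Between samples with the same number, deviations from the group mean had r of 0.15, 0.20 and 0.38 across genes, which are not independent replicates, and between samples with different numbers r ran from -0.34 to 0.26. Control replicate 1 with ICF replicate 2 (0.26) exceeded the same-numbered pairs of replicates 1 and 2, so the pairing rests on the labels. The main fit has no block, as the study names none. The labels number donors and the methods name independent experiments, and p-values measure the spread between these samples.

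Alternatives were DESeq2 1.42.0, RLE size factors, a looser filter (1 count in any sample), a stricter one (10 counts in each sample), a replicate block with either tool, the counts of ICF replicate 3 divided by 4, a prior count of 2, each sample left out, and replicate 3 of both groups left out. The members and lists were chosen with earlier results of these data known. Named were A2m, Aoc3 and Ace, their homologues, up to 4 genes per list past the threshold and the 2 most abundant others, the 2 nearest protein-coding genes on each side, the 5 most similar profiles per gene and the 3 genes on each side in the order of fold changes. Markers that did not pass, genes that passed only with the block or DESeq2, and Agt, Ren1 and Agtr1a, were chosen after their values were seen. Some genes of the lists are not reported here.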

Additional observations from a re-analysis of the deposited data

How the results depend on the processing

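The log2 fold changes of A2m, Aoc3 and Ace kept their sign in all settings. Apart from left-out samples they ran from -4.18 to -4.02 for A2m, -3.59 to -3.40 for Aoc3 and -1.73 to -1.67 for Ace. The value of -3.40 came from a prior count of 2 and was the only one that moved by more than the spread between samples, since Aoc3 has 12 to 16 reads with ICF. With samples left out they ran from -4.42 to -3.93 for A2m, -3.63 to -3.51 for Aoc3 and -1.76 to -1.64 for Ace. The paper lists smaller falls of A2m and Aoc3 on the log2 scale than any setting here gave. The reason for this difference was not tested.

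Counts of calls depended on the settings, and the cause was not tested. DESeq2 gave 943 genes higher and 1109 lower in place of 580 and 733, and 5 markers lower in place of 3. The replicate block in edgeR gave 2445 higher and 2561 lower, 11 and 18 relatives, and 11 and 12 markers. DESeq2 with the block gave 1457 and 1662 genes, 6 and 16 relatives, and 6 markers lower. The looser filter gave 4 relatives higher and 5 markers lower. Of the 18 relatives and markers past the threshold, the block ended no call in edgeR. Slc31a1 did not pass with the looser filter (adjusted p = 0.0604), nor Col3a1 in DESeq2 with the block (0.1249).

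With 1 sample left out, 85 to 724 genes were higher and 215 to 928 lower, 0 to 4 relatives higher and 3 to 12 lower, and 1 to 4 markers higher and 1 to 4 lower. The lowest counts of genes came without control replicate 2. Without replicate 3 of both groups 2466 genes were higher and 2627 lower, 10 and 18 relatives, and 10 and 12 markers. Without ICF replicate 3 alone 637 genes were higher and 771 lower, with 4 relatives higher and 5 lower. Of the genes beside A2m, Aoc3 and Ace, 0 passed without 1 sample and 1, Aoc2, without replicate 3 of both groups. At 12 to 16 reads, Aoc3 with ICF is limited by counting error.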
